A study of Mus musculus with 24 samples.

Results

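The Nrf2 oxidative stress pathway was followed through 8 genes: its transcription factor gene Nfe2l2 (which encodes Nrf2), its repressor gene Keap1, and the target genes Srxn1, Hmox1, Gclm, Gclc, Txnrd1 and Slc7a11. They were chosen by symbol, with earlier results of these data known, and all 8 of 8 were found among the 35742 genes measured. Levels are from RNA sequencing of the mouse embryonic stem (mES) cell line V6.5 with a BRD2 degron, a tag through which the chromatin reader BRD2 can be removed by adding auxin. Treated groups received doxycycline (Dox, 1 µg/ml, 18 h) and then indole-3-acetic acid, an auxin (IAA, 500 µM, 24 h), and their controls received Dox alone, so that every group carried the degron and received Dox. The 4 stages were mES cells grown in 2i medium with leukaemia inhibiting factor, and embryoid bodies (EB), aggregates that differentiate without that factor, on day 2 (EBd2), day 3 (EBd3) and day 4 (EBd4). Each of the 8 groups held 3 libraries, 24 in all. The labels name 1 degron line, and neither a line without the degron treated with IAA nor a group without Dox was analysed here. The time of IAA addition within EB culture is not given in the labels. They also leave out whether the libraries of a group are separate cultures, so the p-values measure only the spread between these samples, which may be technical.

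Nrf2 is a basic leucine zipper factor that drives genes of antioxidant defence. Keap1, an adaptor of the Cul3 ubiquitin ligase, marks Nrf2 for degradation until electrophiles or oxidants modify its cysteines, so that the activity of Nrf2 is set mainly at the protein level, which RNA counts do not measure. Freed Nrf2 pairs with a small Maf protein and binds the antioxidant response element (ARE) of its targets, and the heme-sensitive repressor Bach1 competes for the same element.

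The ARE core was searched in the 250 bases before the RefSeq gene starts (GRCm38.p6), as TGACNNNGC or TGAGNNNGC on both strands. Of the 8 genes, 6 had such a window (8 windows, since Txnrd1 has 3), and Hmox1 and Gclc were not searched. A match was present for 5 of these 6 genes, against 25.65% of the 27025 genes with windows (23.013% of 32851 windows). The promoters below are shown because they hold the matches, which are printed in capitals. Matches on the other strand read as the reverse complement.
Srxn1, chr2:152105274-152105523, plus strand: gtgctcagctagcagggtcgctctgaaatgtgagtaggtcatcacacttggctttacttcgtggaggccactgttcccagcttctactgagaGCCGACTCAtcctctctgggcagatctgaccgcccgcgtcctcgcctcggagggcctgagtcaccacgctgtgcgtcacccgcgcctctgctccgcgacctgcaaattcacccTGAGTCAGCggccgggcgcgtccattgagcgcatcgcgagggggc
Gclm, chr3:122245307-122245556, plus strand: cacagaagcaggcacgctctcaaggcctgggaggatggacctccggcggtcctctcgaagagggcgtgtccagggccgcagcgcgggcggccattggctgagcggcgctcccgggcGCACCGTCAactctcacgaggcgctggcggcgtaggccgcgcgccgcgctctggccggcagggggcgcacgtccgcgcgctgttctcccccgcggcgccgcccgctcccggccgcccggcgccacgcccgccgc
Txnrd1, chr10:82858956-82859205, plus strand: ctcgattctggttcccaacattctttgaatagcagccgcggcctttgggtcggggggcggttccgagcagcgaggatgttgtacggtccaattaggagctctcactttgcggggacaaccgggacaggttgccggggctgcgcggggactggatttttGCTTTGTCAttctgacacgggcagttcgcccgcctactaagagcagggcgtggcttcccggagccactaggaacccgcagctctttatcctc
Slc7a11, chr3:50443614-50443863, minus strand: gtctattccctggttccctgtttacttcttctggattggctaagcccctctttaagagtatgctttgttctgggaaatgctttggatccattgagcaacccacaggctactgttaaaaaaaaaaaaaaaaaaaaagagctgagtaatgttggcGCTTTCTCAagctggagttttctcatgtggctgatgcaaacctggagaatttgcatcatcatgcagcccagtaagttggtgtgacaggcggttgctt
Nfe2l2, chr2:75704664-75704913, minus strand: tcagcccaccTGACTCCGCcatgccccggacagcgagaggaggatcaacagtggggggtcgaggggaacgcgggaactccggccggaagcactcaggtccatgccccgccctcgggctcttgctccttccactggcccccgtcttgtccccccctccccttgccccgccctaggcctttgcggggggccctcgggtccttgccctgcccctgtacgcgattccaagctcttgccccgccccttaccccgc

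Srxn1 was the one gene of these with a pair of matches. The match at bases -45 to -37 before its start has the longer form TGAGTCAGC, which was found, together with TGACTCAGC, in 0.796% of all genes with windows. That form contains the AP-1 motif TGAGTCA, which was found, together with TGACTCA, in 5.162% of those genes, so the letters alone do not separate an ARE from an AP-1 site. The Srxn1 window also holds TGAGTCA outside the capitals. The match of Gclm lay at -134 to -126, that of Txnrd1 at -92 to -84 in the second of its windows, that of Slc7a11 at -97 to -89, and that of Nfe2l2 at -240 to -232. The Keap1 window held no match. Binding at these letters was not measured here.

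Depth ranged from 7819522 to 15732767 recovered reads per library. EBd4 libraries with IAA were all deeper (9007143 to 10598075) than those with Dox (7941180 to 8120480). Mitochondrial shares of the reads were 0.959% to 1.03% in IAA and 0.831% to 0.892% in Dox libraries of EBd2, and 1.25% to 1.26% in IAA and 1.14% to 1.19% in Dox libraries of EBd3. Within EBd2 Dox, library 3 differed from libraries 1 and 2 by a chi-square per degree of freedom of 4.49 and 3.77, while these differed by 1.29. Within EBd4 IAA, library 1 differed from libraries 2 and 3 by 3.68 and 5.35, while these differed by 2.03. The log2 values of the 8 genes in EBd2 and in EBd4 are therefore also given without these libraries. RNA of the targeted gene Brd2 was higher with IAA throughout (log2 0.87 ± 0.02, 0.65 ± 0.04, 0.38 ± 0.04 and 0.48 ± 0.06 (SE) in mES, EBd2, EBd3 and EBd4), which checks nothing about the protein. Summed normalized counts of 8 pluripotency markers were 58944 to 60688 in IAA and 51533 to 53269 in Dox libraries of mES. In EBd2 and EBd3 the groups overlapped, within 10519 to 12778. In EBd4 the sums were 10515 to 10954 in IAA and 11639 to 12474 in Dox libraries. Of these markers, 1 was higher and 4 lower with IAA in EBd2 (limma, adjusted p below 0.05), against 13.4% and 16.7% of all genes. In EBd3 it was 1 and 2, against 4.22% and 6.32%. In EBd4 it was 4 and 2, against 4.69% and 5.57%. For 5 epiblast markers the sums were 695 to 809 in IAA and 1395 to 1528 in Dox libraries of mES. In EBd2 they were 31990.3 to 33839 in IAA and 23731 to 25471 in Dox libraries. They overlapped in EBd3, within 28622 to 30949, and in EBd4 were 18661 to 19656 in IAA and 19685 to 21276 in Dox libraries. Neural marker sums (5 genes) were higher with IAA in mES, EBd2 and EBd3. They were 2620 to 2751 in IAA and 2283 to 2446 in Dox libraries of mES, and 2282 to 2323 in IAA and 1160.4 to 1202 in Dox libraries of EBd2. In EBd3 they were 2715 to 2930 in IAA and 2339 to 2428 in Dox libraries. In EBd4 they overlapped, at 2251 to 2379 in IAA and 2266 to 2551 in Dox libraries. Mesoderm marker sums (7 genes) were 92.9 to 714 in EBd4 IAA and 482 to 1065 in EBd4 Dox libraries, and at most 145 in the other stages. The EBd4 IAA libraries thus differed widely, and the lowest was within the range of the other stages. Primitive endoderm sums (6 genes) were 98.5 to 361 in all libraries, and fibroblast sums (7 genes) at most 536. Blood and macrophage marker sums (8 genes, mostly Cd68, with Ptprc, Adgre1 and Csf1r at or near 0) were 81.3 to 99.7 in IAA and 166 to 182 in Dox libraries of mES. They were 141 to 156 in IAA and 231 to 272 in Dox libraries of EBd2, 103 to 152 in IAA and 113 to 141 in Dox libraries of EBd3, and 155 to 164 in IAA and 95.9 to 108 in Dox libraries of EBd4. The part of these differences in the results below was not tested. In such bulk samples, fewer cells of a type and less RNA per cell cannot be told apart.

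The question of the treatment was how the 8 genes differ when IAA is added to the degron line in each stage. Nfe2l2, Srxn1, Hmox1 and Gclc rose with IAA in all 4 stages, by 1.17-fold to 1.85-fold. Across all genes tested in every stage, 0.647% rose in all 4. Since the 8 genes were chosen with earlier results of these data known, such shares, here and below, are no independent comparison. The Hmox1 call in EBd2 and the Nfe2l2 call in EBd3 were each lost in some alternative settings, given below. Txnrd1 rose in mES, EBd2 and EBd3. Gclm fell in mES and rose in EBd3 and EBd4. Keap1 rose in mES alone, and Slc7a11 passed the test in no stage. Here and below, rose and fell mean an adjusted p below 0.05 in limma, and values per library are size-factor-normalized counts, given in the order of libraries 1, 2 and 3.

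In mES, 6 of the 8 genes rose and 1 fell, against 17.3% and 20.1% of all genes tested. In EBd2, 5 rose and 0 fell, against 13.4% and 16.7% of all genes. In EBd3, 6 rose and 0 fell, against 4.22% and 6.32%. In EBd4, 5 rose and 0 fell, against 4.69% and 5.57%. The median log2 fold change of the 8 genes was 0.31 in mES, 0.23 in EBd2, 0.25 in EBd3 and 0.37 in EBd4. Over all genes it lay between -0.04 and -0.01 in each stage. Without EBd2 Dox 3 the EBd2 count was 4, and without EBd2 IAA 1 or without EBd2 IAA 2 it was 3. Without EBd4 IAA 1 the EBd4 count was 4.

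**Figure D1:**
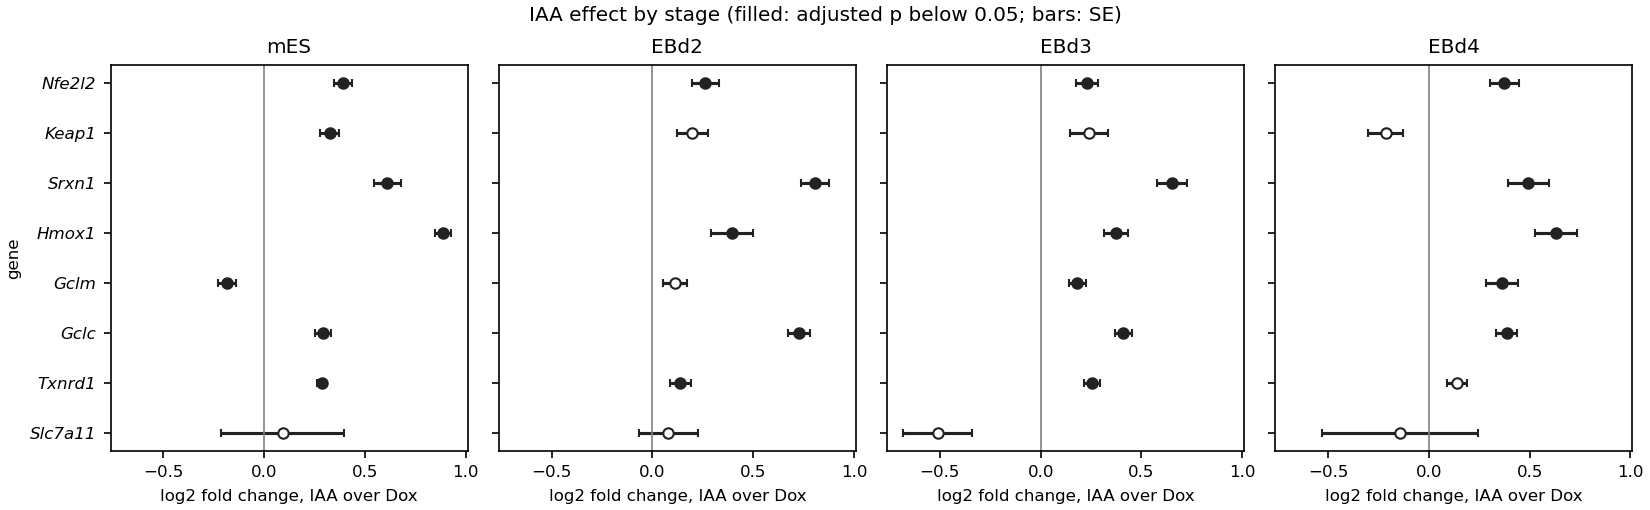
Log2 fold change of IAA over Dox (x axis) for each of the 8 genes (y axis) in the 4 stages, from limma with 3 libraries per group. Points are estimates, bars are SE, and filled points have an adjusted p below 0.05. Srxn1, Hmox1, Gclc and Nfe2l2 have filled points right of 0 in every panel, and Gclm lies left of 0 in mES alone.

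Nfe2l2 (ENSMUSG00000015839, chromosome 2, 75675513 to 75704641, minus strand, mm10 with GENCODE M21) had 1085, 1098 and 991 normalized counts in mES IAA, against 823, 838 and 761 in mES Dox. EBd2 libraries had 1062, 1109 and 1114 with IAA, against 834, 878 and 1036 with Dox. Every IAA library was above every Dox library in both stages, in EBd2 by a narrow margin over Dox 3. In EBd3 the counts were 1290.3, 1244 and 1234 with IAA, against 999.7, 1125 and 1089.9 with Dox. In EBd4 they were 1128, 939 and 942 with IAA, against 754, 773 and 786 with Dox. The groups did not overlap in these stages either, and EBd4 IAA 1 was the high library of its group. Log2 fold changes were 0.39 ± 0.04 in mES (adjusted p = 1.94e-09), 0.26 ± 0.07 for EBd2 (0.00444), 0.23 ± 0.05 in EBd3 (0.00485) and 0.37 ± 0.07 in EBd4 (0.00389). In EBd3 the call was lost without IAA 1 (0.0525) or without Dox 1 (0.0625). Without EBd2 Dox 3 the EBd2 value was 0.35, and without EBd4 IAA 1 the EBd4 value was 0.29 (0.0139).

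Keap1 (ENSMUSG00000003308, chromosome 9, 21229730 to 21239361, minus strand) had 676, 730.2 and 679 normalized counts in mES IAA, against 547, 549.9 and 567 in mES Dox. The groups lay apart, and the log2 fold change was 0.32 ± 0.05 (adjusted p = 3.48e-07). The EBd2 counts were 304, 293 and 322 with IAA, all above 271, 278 and 252 with Dox. In EBd3 the libraries overlapped, at 265, 289 and 293 with IAA, against 211, 274 and 236 with Dox. In EBd4 the order of the groups was turned round, with 208, 218 and 205 in IAA libraries, all below 239, 245 and 248 in Dox libraries. None of the EB values passed the test: 0.20 ± 0.08 in EBd2 (adjusted p = 0.0526; 0.16 without Dox 3), 0.24 ± 0.10 in EBd3 (0.117) and -0.21 ± 0.09 in EBd4 (0.144; -0.21 without IAA 1). The EBd2 value passed with edgeR (0.0215), with TMM scaling (0.0231) and in a joint fit of 24 libraries (0.0468), where those of EBd3 (0.0344) and EBd4 (0.0495) passed too. An antisense gene, Gm16754, shares 510 exonic bases with Keap1 and had a mean of 21.1 normalized counts. Whether counting used strand is not given in the sources used here, so reads of such partners cannot be told apart.

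The ratio of Nfe2l2 to Keap1, scaled by exonic length, was 6.69, 5.32 and 5.67 in EBd4 IAA, against 3.89, 3.89 and 3.92 in EBd4 Dox. The groups lay apart, with a log2 difference of 0.59 ± 0.10 (SE). An exact two-sided permutation test gave p = 0.1, the smallest that 3 against 3 libraries allow. In the other stages the differences of this ratio were 0.06 in mES, 0.06 in EBd2 and -0.01 in EBd3, with exact p of 0.6, 0.6 and 1. The EBd2 ratios were 4.32, 4.68 and 4.27 with IAA, against 3.81, 3.91 and 5.09 with Dox. The groups overlapped there through Dox 3 alone. Without Dox 3 all IAA libraries were above both Dox libraries, and the EBd2 difference was 0.20. Without EBd4 IAA 1 the EBd4 difference was 0.49. With 1 library left out, 0.2 is the smallest exact p possible, so these tests could not pass and decide nothing.

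Srxn1 (ENSMUSG00000032802, chromosome 2, 152105516 to 152111376, plus strand) encodes sulfiredoxin, which restores overoxidised peroxiredoxins. It had 391, 374 and 373 normalized counts in mES IAA, against 263, 265 and 219 in mES Dox. EBd2 libraries had 801, 858 and 836 with IAA, against 537, 457 and 436 with Dox. All IAA libraries were above all Dox libraries in both stages, by a gap wider than either group. In EBd3 the counts were 486, 463 and 529 with IAA, against 315, 316 and 308 with Dox. In EBd4 they were 243, 219 and 205 with IAA, against 166, 159 and 147 with Dox. The order was the same, at the lowest level of the 4 stages. Log2 fold changes were 0.61 ± 0.07 in mES (adjusted p = 1.23e-09), 0.81 ± 0.07 in EBd2 (2.37e-08; 0.75 without Dox 3), 0.65 ± 0.07 in EBd3 (8.05e-07) and 0.49 ± 0.10 in EBd4 (0.00686; 0.43 without IAA 1). Srxn1 had the largest rise of the 8 genes in EBd2 and EBd3.

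Hmox1 (ENSMUSG00000005413, chromosome 8, 75093621 to 75100589, plus strand) encodes heme oxygenase 1, which breaks heme down to biliverdin, iron and carbon monoxide. It had 1171, 1173 and 1189 normalized counts in mES IAA, against 621, 649 and 638 in mES Dox. The 2 groups were tight and far apart, and the log2 fold change of 0.89 ± 0.04 (adjusted p = 3.31e-20) was the largest of the 8 genes in mES. In EBd2 it had 13901, 13786 and 11229.8 with IAA, against 11129, 11323 and 7511 with Dox. These groups overlapped, since IAA 3 was below Dox 2, and the low Dox 3 is the library that stood apart. The EBd2 value was 0.40 ± 0.10 (0.00576), and 0.20 without Dox 3 (0.00143). That call was lost with DESeq2 (0.132), without IAA 1 (0.0578) or without IAA 2 (0.0589). In EBd3 the counts were 4549.6, 4280.4 and 5318 with IAA, against 3299.5, 3555 and 4054 with Dox, and in EBd4 1359.9, 1863 and 2047 with IAA, against 1124, 1128 and 1098 with Dox. The groups did not overlap, and in EBd4 the IAA libraries were spread far more widely than the Dox libraries. Log2 fold changes were 0.37 ± 0.06 in EBd3 (0.000114) and 0.63 ± 0.10 in EBd4 (0.00163). EBd4 IAA 1 was the lowest of its group, and the EBd4 value was 0.81 without it (0.000102).

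**Figure D2:**
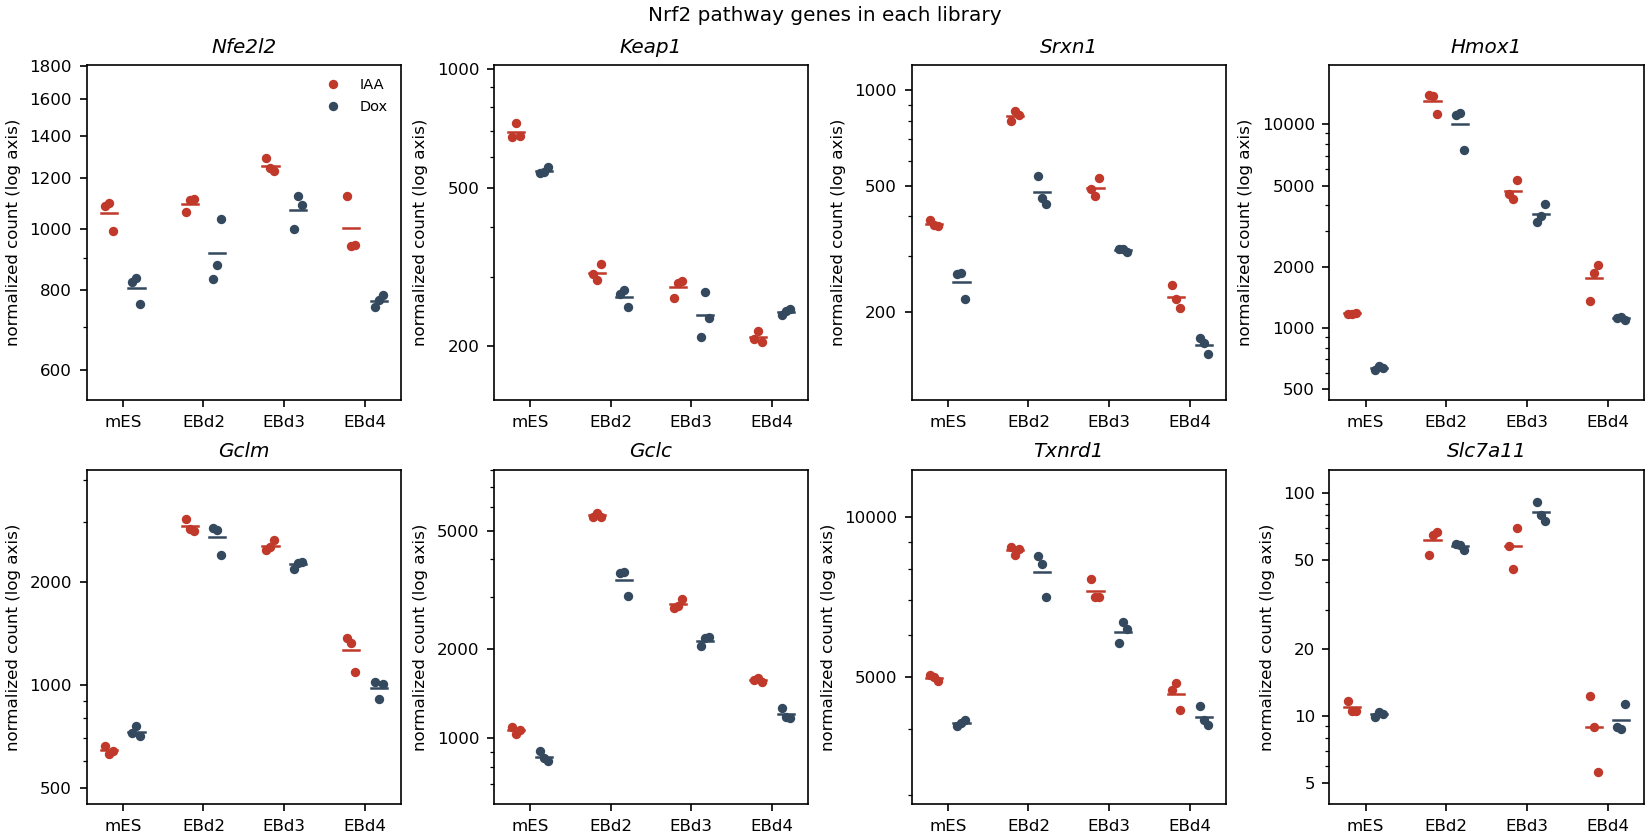
Size-factor-normalized counts (y axis, logarithmic, scaled for each gene) of the 8 genes in each of the 24 libraries, by stage (x axis). Points are libraries with IAA (left) and with Dox alone (right), and bars are group means (n = 3). Hmox1 reaches 13901 in EBd2 IAA and is at 621 to 649 in mES Dox, and Keap1 IAA libraries lie below Dox libraries in EBd4 alone.

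Gclm and Gclc encode the modifier and catalytic subunits of glutamate cysteine ligase, the enzyme of the rate-limiting step of glutathione synthesis. Gclc (ENSMUSG00000032350, chromosome 9, 77754535 to 77794485, plus strand) had 1089, 1037 and 1067 normalized counts in mES IAA, against 905, 859 and 841 in mES Dox. In EBd2 it had 5566, 5737 and 5569 with IAA, against 3589, 3636 and 3003 with Dox. The EBd2 groups were farther apart than those of any other stage for this gene. In EBd3 it had 2755, 2796 and 2954 with IAA, against 2041, 2175 and 2186 with Dox. In EBd4 it had 1577, 1595 and 1552 with IAA, against 1262, 1179 and 1175 with Dox. No stage showed an overlap. Log2 fold changes were 0.29 ± 0.04 in mES (adjusted p = 1.14e-07), 0.73 ± 0.06 in EBd2 (4.89e-09; 0.64 without Dox 3), 0.41 ± 0.04 in EBd3 (2.29e-07) and 0.39 ± 0.05 in EBd4 (0.000415; 0.39 without IAA 1).

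Gclm (ENSMUSG00000028124, chromosome 3, 122245557 to 122270732, plus strand) moved the other way in mES, with 661, 626 and 641 normalized counts in IAA libraries, all below 721, 761 and 708 in Dox libraries. Its log2 fold change there was -0.18 ± 0.04 (adjusted p = 0.00106). In EBd2 the groups overlapped, at 3063, 2869 and 2839 with IAA, against 2889, 2842 and 2399 with Dox, and the value of 0.11 ± 0.06 (0.158; 0.03 without Dox 3) did not pass the test. In EBd3 it had 2493, 2538 and 2656 with IAA, against 2195, 2286 and 2298 with Dox, a rise of 0.18 ± 0.04 (0.00474). In EBd4 it had 1372, 1329 and 1093 with IAA, against 1023, 909.6 and 1007 with Dox, a rise of 0.36 ± 0.08 (0.00858). Libraries did not overlap in EBd3 or EBd4. The EBd3 call was lost in the joint fit of 24 libraries (0.0694). That of EBd4 was lost without IAA 1 (0.30, adjusted p = 0.0589), IAA 2 (0.0725) or Dox 2 (0.0852). The opposite-strand gene Gm17494 shares 296 exonic bases with Gclm and had a mean of 57.5 normalized counts, and a pseudogene, Gm6061, shares 244.

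The ratio of Gclc to Gclm, scaled by exonic length, was 2.75, 2.77 and 2.78 in mES IAA, against 2.10, 1.89 and 1.98 in mES Dox. In EBd2 it was 3.04, 3.34 and 3.28 with IAA, against 2.07, 2.14 and 2.09 with Dox. In EBd3 it was 1.85, 1.84 and 1.86 with IAA, against 1.55, 1.59 and 1.59 with Dox. In these stages RNA of the catalytic subunit was in greater excess over that of the modifier subunit in every IAA library. Log2 differences of the ratio were 0.48 ± 0.04, 0.61 ± 0.04 and 0.23 ± 0.01 in mES, EBd2 and EBd3, each with an exact two-sided permutation p of 0.1, the smallest possible. In EBd4 the groups overlapped, at 1.92, 2.01 and 2.37 with IAA, against 2.06, 2.16 and 1.95 with Dox (exact p = 0.9). The EBd2 difference was 0.61 without Dox 3 as well, and the EBd4 difference was 0.08 without IAA 1. With 8 ratios compared in all, none could pass 0.05.

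Txnrd1 (ENSMUSG00000020250, chromosome 10, 82833951 to 82897712, plus strand) encodes the cytosolic thioredoxin reductase. It had 5059.8, 4999 and 4922 normalized counts in mES IAA, against 4042, 4102 and 4157 in mES Dox. In EBd3 it had 7669, 7078 and 7079.6 with IAA, against 5796, 6344 and 6152 with Dox. These groups lay apart, with log2 fold changes of 0.28 ± 0.02 in mES (adjusted p = 1.40e-12) and 0.25 ± 0.04 in EBd3 (3.35e-05). In EBd2 it had 8785, 8484 and 8729 with IAA, against 8457, 8157 and 7078 with Dox. Here the groups were separated only narrowly, and the value of 0.14 ± 0.05 was just past the threshold (0.0484). It was 0.06 without Dox 3 (0.176), and it was lost as well without IAA 1, IAA 2, IAA 3 or Dox 2 (adjusted p 0.149, 0.0863, 0.148 and 0.0566) and with a pseudocount of 0.5 (0.0505). In EBd4 the groups overlapped, at 4742, 4881 and 4334 with IAA, against 4407, 4163 and 4076 with Dox, and 0.14 ± 0.05 did not pass (0.0852; 0.13 without IAA 1). It passed without IAA 3 (0.0208) and in the joint fit (0.0447).

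Slc7a11 (ENSMUSG00000027737, chromosome 3, 49892526 to 50443614, minus strand) encodes xCT, the cystine and glutamate exchanger that feeds cysteine to glutathione synthesis, and is a known target of both Nrf2 and Atf4. It was the lowest of the 8 genes per length in every stage. In mES it had 11.7, 10.6 and 10.5 normalized counts with IAA, against 9.97, 10.4 and 10.2 with Dox. In EBd2 it had 53, 65 and 67 with IAA, against 59.5, 58.6 and 56 with Dox. In EBd4 it had 12.3, 8.95 and 5.64 with IAA, against 8.91, 8.72 and 11.3 with Dox. Groups overlapped in EBd2 and EBd4 and lay close together in mES. None of these stages passed the test, with log2 0.09 ± 0.31 in mES, 0.08 ± 0.15 in EBd2 and -0.14 ± 0.39 in EBd4 (adjusted p = 0.854, 0.733 and 0.872). The EBd2 value was 0.05 without Dox 3, and the EBd4 value was -0.38 without IAA 1. In EBd3 all IAA libraries, at 58.1, 46 and 70.1, were below all Dox libraries, at 91.4, 79.8 and 75.3. The value of -0.51 ± 0.17 did not pass the test (0.0535). It passed without IAA 3 (0.0137), without the filter on low values (0.0453) and with a replicate block (0.0455).

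Whether the IAA effect differed between the EB stages and mES was tested gene by gene, in a fit of all 24 libraries whose 3 contrasts share the mES libraries. For EBd2 minus mES, 2 genes of the 8 passed as higher and 1 as lower, against 9.73% and 6.61% of all genes. For EBd3 minus mES it was 1 and 1, against 7.15% and 4.52%. For EBd4 minus mES it was also 1 and 1, against 9.68% and 7.08%. The effect on Gclm was more positive in each EB stage than in mES, by 0.30 ± 0.09 in EBd2 (adjusted p = 0.0232), 0.36 ± 0.09 in EBd3 (0.00666) and 0.55 ± 0.09 in EBd4 (5.19e-05). The effect on Gclc was more positive in EBd2 by 0.43 ± 0.07 (4.10e-05). The effect on Keap1 was more negative in EBd4 by -0.54 ± 0.11 (0.000378). Hmox1 had a smaller rise in EBd2 (-0.49 ± 0.16, 0.0311) and EBd3 (-0.51 ± 0.16, 0.0314) than in mES. Both Hmox1 calls were lost with DESeq2 (0.0556 and 0.0763), without the filter on low values (0.0832 and 0.0898) and without any of mES IAA 1, IAA 2, IAA 3, Dox 1 or Dox 3. The EBd2 call was lost as well without EBd2 IAA 3, Dox 1 or Dox 2 (0.0513 to 0.122 over these libraries), and the EBd3 call without EBd3 IAA 1, IAA 2, Dox 2 or Dox 3 (0.0514 to 0.108). The Gclm difference of EBd2 was lost without the filter (0.0545) and without EBd2 IAA 1, EBd2 Dox 3, mES IAA 2 or mES Dox 2 (0.0705, 0.0956, 0.0571 and 0.0693). Differences for Nfe2l2, Srxn1, Txnrd1 and Slc7a11 did not pass in any stage, and that of Txnrd1 in EBd2 was -0.22 without EBd2 Dox 3 (0.00725). Without that library the Hmox1 and Gclc differences of EBd2 were -0.69 and 0.34, so that 1 gene passed as higher and 2 as lower. Without EBd4 IAA 1 the EBd4 differences of Gclm and Keap1 were 0.48 and -0.53, and both passed.

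Without IAA, the target genes were far higher in EBd2 than in mES and lower again by EBd4. From mES to EBd2, 7 of the 8 genes rose in Dox libraries and 1 fell, against 35% and 29.1% of all genes. From EBd2 to EBd3, 1 rose and 5 fell, against 22% and 24.4%. From EBd3 to EBd4, 0 rose and 7 fell, against 16.1% and 17.6%. Median log2 changes of the 8 genes were 1.41, -0.31 and -0.91 for these steps, and 0.07, -0.04 and -0.01 over all genes. The step from mES to EB also changed the medium, and the labels list β-mercaptoethanol, a thiol, among the components of the mES medium and do not list those of the EB medium beyond the missing factor. Stage and medium cannot be told apart.

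Hmox1 had the widest course of the 8. Its mean in Dox libraries was 636 ± 14.3 normalized counts in mES, 9987 ± 2147 in EBd2, 3636 ± 384 in EBd3 and 1117 ± 16.4 in EBd4 (SD, n = 3 each). The lowest EBd2 library, Dox 3, was still far above every library of the other stages. The step to EBd2 was 3.95 ± 0.10 (15.4-fold, adjusted p = 6.14e-21; 4.14 without EBd2 Dox 3), and the later steps were -1.44 ± 0.10 (1.11e-11) and -1.70 ± 0.10 (2.01e-12). As TPM, a share of all transcripts scaled by exonic length, Hmox1 was highest or next to highest of the 8 genes in each Dox stage. It stood at 121 ± 2.74 TPM in mES, second to Txnrd1 at 193 ± 2.74, and at 757 ± 78.1 TPM in EBd3, first, above Txnrd1 at 314 ± 14.3. In EBd4 Hmox1 (229 ± 2.76 TPM) and Txnrd1 (214 ± 8.5 TPM) were close.

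The 2 subunit genes followed the same course at smaller size. Gclc had 868 ± 33, 3409 ± 353, 2134 ± 80.7 and 1205 ± 49.3 normalized counts in mES, EBd2, EBd3 and EBd4 Dox libraries, with steps of 1.97, -0.67 and -0.82 (adjusted p = 2.34e-19, 8.67e-10 and 7.70e-11). Gclm had 730.1 ± 27.5, 2710.2 ± 270.4, 2259.7 ± 56.1 and 979.8 ± 61.3, with steps of 1.89, -0.26 and -1.21 (8.92e-19, 0.000832 and 2.02e-13). Both peaked in EBd2, and Gclm stayed closer to its peak in EBd3. Srxn1 had 249 ± 25.7, 477 ± 52.9, 313 ± 4.47 and 157 ± 9.29, so that its EBd4 level was the lowest of the 4, with steps of 0.93, -0.60 and -0.99. Txnrd1 had 4100.2 ± 57.2, 7897 ± 725, 6097 ± 278 and 4216 ± 172, with steps of 0.94, -0.37 and -0.53. Every one of these steps passed the test, and those that involve EBd2 passed also without EBd2 Dox 3.

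Slc7a11 peaked a day later. It had 10.2 ± 0.23 normalized counts in mES, 58 ± 1.84 in EBd2, 82.2 ± 8.3 in EBd3 and 9.66 ± 1.45 in EBd4 (Dox, SD, n = 3 each). The rise to EBd2 was 2.40 ± 0.22 (adjusted p = 6.83e-10) and the fall to EBd4 was -2.97 ± 0.22 (1.88e-10). The step between EBd2 and EBd3, 0.49 ± 0.22, did not pass with limma (0.0686) and passed with edgeR (0.0025). Per length it ran from 0.244 ± 0.00553 TPM in mES to 2.15 ± 0.221 TPM in EBd3, below the other 7 genes throughout.

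The regulators did not share this course. Nfe2l2 stayed within a narrow range, at 808 ± 41, 916 ± 106, 1072 ± 64.7 and 771 ± 15.9 normalized counts in the 4 Dox stages, highest in EBd3. Its steps were 0.18 (adjusted p = 0.0216), 0.23 (0.00553) and -0.47 (4.05e-06), of which the first was lost without EBd2 Dox 3 (0.08, adjusted p = 0.208) or mES Dox 3 (0.119) and the second without EBd2 Dox 1 (0.0561). Keap1 had 555 ± 10.7 in mES, 267 ± 13.4 in EBd2, 240.2 ± 31.4 in EBd3 and 244 ± 4.42 in EBd4. It fell by 1.05 on the log2 scale at the step to EBd2 (3.17e-11), opposite to the target genes. Its later steps of -0.16 (0.115) and 0.03 (0.799) did not pass, though the step to EBd3 passed without EBd3 Dox 2 (-0.26, adjusted p = 0.0123). Keap1 levels of the EB stages overlapped, and all were below those of the mES libraries.

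**Figure D3:**
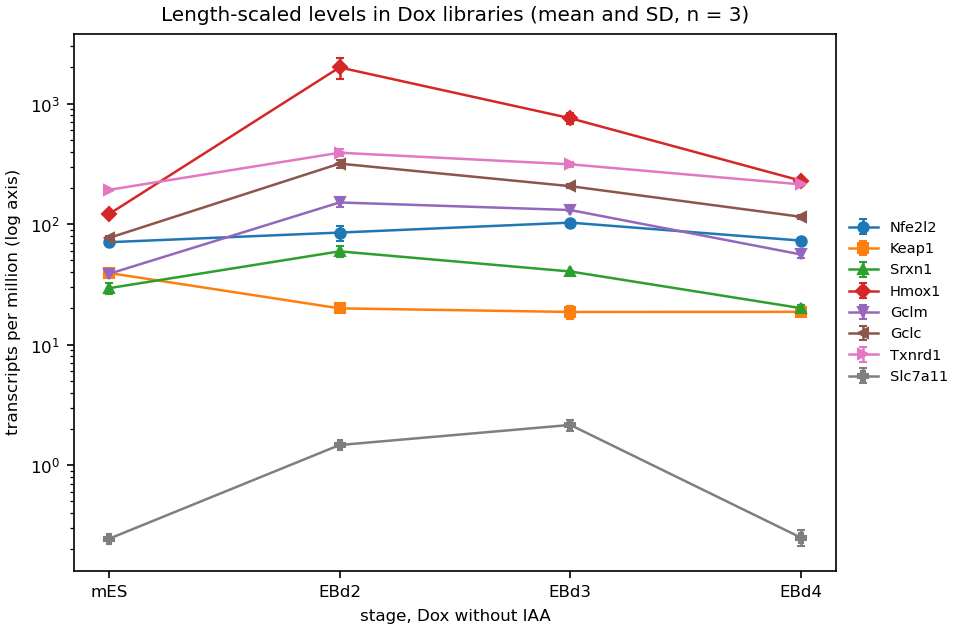
Length-scaled levels of the 8 genes (y axis, TPM, logarithmic) in Dox libraries of the 4 stages (x axis), as mean and SD (n = 3). Lines join the means of a gene. Hmox1, at 121 in mES and 229 in EBd4, is the highest in EBd2 and EBd3, and Slc7a11 is the lowest of the 8 throughout.

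Among the target genes, levels over the 24 libraries ran together most closely for Hmox1 and Gclc (Pearson r = 0.981 on the log2 scale) and for Hmox1 and Txnrd1 (0.962). Nfe2l2 had r between 0.477 and 0.632 with the 6 targets, and Keap1 had its lowest r, -0.628, with Gclm. These values describe libraries that share stages, so they mostly follow the course above. Over all 11571 genes with a mean of at least 50 in a group, the genes most like Hmox1 were Srrt (0.982), Tex10 (0.982) and Nop14 (0.982). Those most like Gclc were Cbarp (0.985), Hmox1 (0.981) and Nop14 (0.980), and those most like Txnrd1 were Nop14 (0.965), Ppm1f (0.962) and Hmox1 (0.962). For Gclm they were Mest (0.987), Slc7a3 (0.981), which encodes a cationic amino acid transporter, and Tnfsf11 (0.975). For Srxn1 they were Ercc3 (0.965), Nop56 (0.963) and Ssr1 (0.961), and for Slc7a11 Sec24d (0.963), Dnajc13 (0.954) and Grb10 (0.952). Keap1 was most like Zmym3 (0.986), Wdr76 (0.985) and Tigar (0.982), whose product lowers glycolytic flux. Nfe2l2 was least closely matched, with Entr1 (0.842), Kcnh7 (0.824) and Slc25a40 (0.823).

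The wider pathway was read from 6 gene lists, and their counts stand beside the shares of all genes tested, which were 17.3% up and 20.1% down in mES, 13.4% up and 16.7% down in EBd2, 4.22% up and 6.32% down in EBd3, and for EBd4 4.69% up and 5.57% down. Of 26 other known Nrf2 targets, 10 rose and 8 fell with IAA in mES, 9 rose and 4 fell in EBd2, 12 rose and 1 fell in EBd3, and 9 rose and 0 fell in EBd4. Their median log2 fold changes were 0.03, 0.11, 0.15 and 0.16, against -0.01, -0.04, -0.01 and -0.01 over all genes. In EBd4 the count was 4 without IAA 1, IAA 2 or Dox 2 and 5 without Dox 1. Nqo1, Txn1, Ftl1 and Fth1 rose in all 4 stages. Nqo1 encodes a quinone reductase and is a target of the aryl hydrocarbon receptor as well. It had 1038 ± 39.7 normalized counts in mES IAA and 543 ± 7.93 in mES Dox, and its log2 fold changes were 0.93 ± 0.04, 0.66 ± 0.07, 0.91 ± 0.07 and 0.63 ± 0.12 in mES, EBd2, EBd3 and EBd4 (adjusted p = 6.57e-20, 4.99e-07, 1.90e-09 and 0.00496). Ftl1, the light chain of the iron store ferritin, rose by 0.73, 0.48, 0.51 and 0.63, and Fth1, its heavy chain, by 0.29, 0.26, 0.40 and 0.27. Both ferritin genes have near-identical copies elsewhere in the genome, so their reads are uncertain. Txn1, the thioredoxin that Txnrd1 reduces, rose by 0.26, 0.36, 0.32 and 0.15. Prdx1, a peroxiredoxin, rose by 0.42 in EBd2 and 0.32 in EBd3, and Abcc1, an exporter of glutathione conjugates, by 0.33 in EBd4. In mES, Abcc1 lay the other way, at 754 to 804 normalized counts with IAA and 857 to 900 with Dox. Prdx1 was higher with IAA there, at 9599 to 9734 against 8506 to 8593 with Dox. The list did not move as one in mES and EBd2. Mgst1, a membrane-bound glutathione transferase, fell by 2.70 in mES, and Ephx1, an epoxide hydrolase, fell by 1.12 in mES (both picked after their values were seen). Mgst1 was near the floor there, at 0 to 1.76 normalized counts with IAA and 8.69 to 12.1 with Dox. The size of its fall thus depends on the pseudocount. The drug and conjugate exporter gene Abcc4 rose by 0.93 ± 0.06 in EBd2 (4.36e-10) and fell by 0.18 in EBd3 (0.0136).

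Of 13 regulators and partners of Nrf2, 5 rose and 3 fell in mES, 2 rose and 2 fell in EBd2, 1 rose and 1 fell in EBd3, and 2 rose and 1 fell in EBd4. The EBd2 and EBd3 counts lie near the shares over all genes, 13.4% up and 16.7% down in EBd2, 4.22% and 6.32% in EBd3. So do the falls in mES (20.1%) and EBd4 (5.57%). Sqstm1, whose product p62 sequesters Keap1 and which is itself a known Nrf2 target, rose in every stage (0.22, 0.33, 0.31 and 0.27; adjusted p = 1.87e-08, 0.000958, 1.32e-06 and 0.00158). Mafg, a small Maf partner, rose in mES (0.33) and EBd4 (0.21), and Maff rose in EBd2 (0.43). The repressor gene Bach1 was higher with IAA in mES as well, at 827 to 875 normalized counts against 678 to 710 with Dox. So was Gsk3b, at 947 to 1015 against 780 to 814 with Dox (both picked after their values were seen). Rbx1, the RING subunit of the Cul3 ligase, fell in EBd2 (-0.20) and EBd4 (-0.21). Its mES libraries were lower with IAA too, at 1000 to 1036 normalized counts against 1144 to 1182 with Dox. In EBd3 they were at 989 to 1004 with IAA and 1061 to 1111 with Dox. Nfe2l1, a relative of Nfe2l2, rose in mES (0.25), and Bach2, a relative of Bach1, fell in EBd3 (-0.63, adjusted p = 0.0322). In mES, Bach2 was lower with IAA as well, at 10.7 to 15 normalized counts against 28.1 to 35.6 with Dox. Without EBd4 IAA 1 the EBd4 calls of Mafg and Rbx1 were lost (0.0817 and 0.0811). Without EBd2 Dox 2, 2 of this list passed in EBd2. In EBd3 1 passed without IAA 1, IAA 3, Dox 1 or Dox 2, and in EBd4 1 passed without IAA 1, IAA 2 or Dox 2.

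Of 15 genes of glutathione and cystine metabolism, 4 rose and 4 fell in mES, 2 rose and 2 fell in EBd2 as well as in EBd3, and 2 rose and 1 fell in EBd4. The EBd2 counts lie near the shares over all genes, 13.4% up and 16.7% down, and the fall in EBd4 near its share (5.57%). Chac1, a glutathione-degrading enzyme and Atf4 target, rose by 1.89 ± 0.09 in mES, 1.22 ± 0.18 in EBd2 and 0.61 ± 0.14 in EBd4, and its EBd3 value was 0.09 ± 0.09 (adjusted p = 0.57). Without EBd4 IAA 1 its EBd4 call was lost (0.45, adjusted p = 0.0692). Slc3a2, the partner chain of xCT, rose by 0.29 in mES. Cbs, of the transsulfuration route to cysteine, fell by 0.86 in mES and 0.73 in EBd4, and Cth, of the same route, fell by 0.42 in EBd2 and 0.46 in EBd3. Glrx2, a mitochondrial glutaredoxin, fell by 0.29 in EBd2, and Gss, which completes glutathione synthesis, rose by 0.39 in EBd3. In mES, Gss was higher with IAA too, at 413 to 468 normalized counts against 278 to 317 with Dox. Glrx2 was lower with IAA there (218 to 233 against 257 to 294 with Dox), and so was Cth (596 to 638 against 698 to 713). Gpx4, which detoxifies lipid peroxides, rose in every stage, by 0.54 ± 0.05 in EBd3 and 0.45 ± 0.06 in EBd4. The EBd3 count of 4 was 2 without IAA 1, IAA 2 or Dox 3 and 1 without Dox 2.

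Of 19 other antioxidant enzymes, 5 rose and 3 fell in mES, 6 rose and 1 fell in EBd2, 4 rose and 2 fell in EBd3, and 1 rose and 1 fell in EBd4. Shares over all genes were 17.3% up and 20.1% down in mES and 13.4% and 16.7% in EBd2. They were 4.22% and 6.32% in EBd3 and 4.69% and 5.57% in EBd4. The EBd4 counts and the falls in mES lie near these shares. Catalase (Cat) rose by 0.30 in mES, 0.36 in EBd2 and 0.34 in EBd3, and Sod1, the cytosolic superoxide dismutase, by 0.25 in mES and 0.31 in EBd2. The peroxiredoxin genes Prdx6 and Prdx2 rose as well, Prdx6 by 0.29 in mES and 0.19 in EBd3 and Prdx2 by 0.28 in EBd2, and Prdx2 fell by 0.21 in EBd4 (adjusted p = 0.0488; 0.184 without EBd4 IAA 1). Txnip, the thioredoxin inhibitor, rose by 0.38 in EBd3 and by 1.29 ± 0.15 in EBd4 (adjusted p = 0.000134). Without EBd2 Dox 3, 11 of the list passed in EBd2. Without EBd3 Dox 1, 3 passed in EBd3, and in EBd4 1 passed without IAA 1, IAA 2, Dox 1 or Dox 2. Of 13 genes of heme and iron handling, 5 rose and 4 fell in mES, 4 rose and 0 fell in EBd2, 3 rose and 0 fell in EBd3, and 0 rose and 1 fell in EBd4. The EBd4 counts of this list also lie near the shares over all genes. Alas1, the first enzyme of heme synthesis, rose by 0.31 in mES, and Ncoa4, a receptor for ferritin breakdown, by 0.16. Slc40a1, the iron exporter ferroportin, rose by 0.92 ± 0.09 in EBd2 and 0.34 in EBd3. Flvcr1, a heme exporter, rose by 0.43 in EBd2, and Fech, the last enzyme of heme synthesis, by 0.22 in EBd3. Alad, another enzyme of that route, fell by 0.29 in EBd4 (adjusted p = 0.0327; 0.0936 without EBd4 IAA 1). The transferrin receptor gene Tfrc fell by 0.13 in mES and rose by 0.43 in EBd2 and 0.25 in EBd3. The mES count of 9 was 5 without IAA 1 and 3 without Dox 3. The EBd3 count was 1 without any of IAA 1, Dox 1, Dox 2 or Dox 3, and the EBd4 count was 0 without IAA 1, IAA 2, Dox 1 or Dox 2.

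The Atf4 programme, the integrated stress response to which Slc7a11 and Chac1 also belong, was listed with 16 further genes. Of these, 15 rose and 0 fell in mES and 11 rose and 0 fell in EBd2, against 17.3% and 13.4% of all genes that rose, with medians of 0.55 and 0.38. In EBd3 2 rose and in EBd4 3 rose, against 4.22% and 4.69% of all genes, with medians of 0.04 and 0.12 and 0 that fell in either stage. Atf5 rose by 1.79 ± 0.04, 2.12 ± 0.05, 0.78 ± 0.09 and 0.54 ± 0.11 in the 4 stages in turn, and Trib3 rose in every stage as well, by 0.29 in EBd3 and 0.43 in EBd4. In EBd4 both calls were lost without IAA 1 (0.0559 for Atf5 and 0.165 for Trib3). Atf4 itself rose by 0.71 and Ddit4, an inhibitor of mTORC1, by 1.59 in mES. The amino acid synthesis genes Asns and Psat1 rose by 0.73 and 0.60 in EBd2, and Ddit3, which encodes CHOP, rose by 0.92 in EBd4. Differences from mES in the IAA effect passed for 3 of the 16 as higher and 4 as lower in EBd2 (median -0.03), for 0 and 12 in EBd3 and for 0 and 8 in EBd4. Over all genes the shares were 9.73% and 6.61%, 7.15% and 4.52%, and 9.68% and 7.08%. Among the 26 other Nrf2 targets, 6 passed as higher and 2 as lower in EBd2, 6 as higher and 1 as lower in EBd3, and 7 as higher and 2 as lower in EBd4. Slc7a11 itself, as given above, passed in none of the stages. The EBd3 count of 2 was 1 without IAA 1 or Dox 3, and the EBd4 count of 3 was 1 without Dox 2. Of the differences, the 7 of the other Nrf2 targets in EBd3 were 3 without EBd3 Dox 1 and 4 without mES IAA 3, Dox 1 or Dox 3, and the 8 of the Atf4 programme in EBd4 were 14 without EBd4 IAA 1.

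The genes with the smallest adjusted p for a difference from mES, 1 per list and stage, were as follows. In EBd2 the effect was more positive for Bach2 by 1.26, Abcc4 by 0.72, Cbs by 0.75, Prdx2 by 0.28, Slc40a1 by 2.21 and Psat1 by 0.58. In EBd3 it was more positive for Mgst1 by 2.35 and Slc40a1 by 1.63, and the differences of Nfe2l1, Chac1, Msra and Atf4 were -0.32, -1.80, -0.81 and -0.65. The Mgst1 difference rests on mES IAA libraries at 0 to 1.76 normalized counts. In EBd4 the effect was more positive for Bach2 by 1.32, Abcc1 by 0.51 and Txnip by 1.29, and the differences of Chac1, Alad and Atf5 were -1.28, -0.47 and -1.26.

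**Figure D4:**
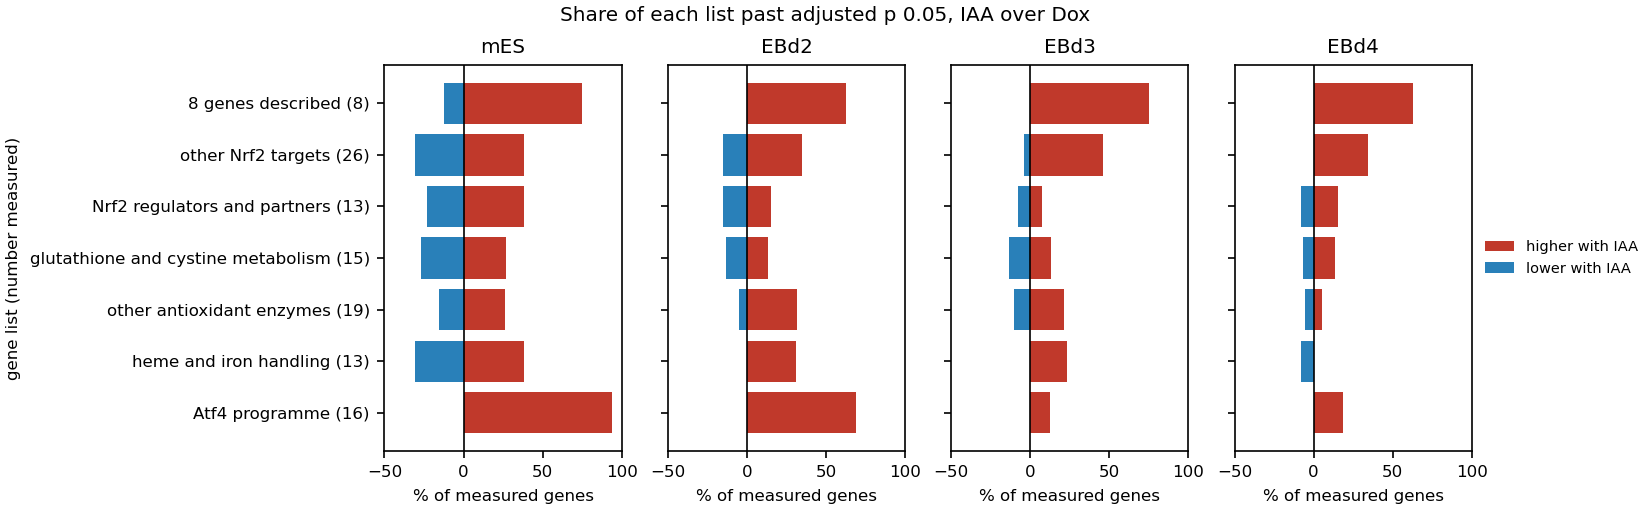
Share of the measured genes of each list (y axis, number of genes in brackets) that passed an adjusted p of 0.05 for IAA over Dox (x axis, %, higher to the right of 0 and lower to the left) in the 4 stages. The 8 genes described are the top row. The other Nrf2 targets have 10 genes higher and 8 lower in mES and 9 higher and 0 lower in EBd4, and the Atf4 programme has 15 of 16 higher in mES.

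Over the EB course without IAA, shares of all genes were 35% up and 29.1% down at the step from mES to EBd2, 22% and 24.4% to EBd3, and 16.1% and 17.6% to EBd4. Of the 26 other Nrf2 targets, 11 rose and 11 fell at the step to EBd2, 7 rose and 14 fell to EBd3, and 1 rose and 16 fell to EBd4. Fth1 rose by 1.65 ± 0.06 at the first step, Abcc4 rose by 1.17 at the next, and Nqo1 fell by 1.66 ± 0.08 at the last. The regulators had 7 up and 4 down, 3 up and 4 down, and 1 up and 3 down at these steps, with Nfe2l1 at -0.74 in the first, Nfe2l3, another relative of Nfe2l2, at 1.78 in the next and Bach2 at 1.06 in the last. Glutathione metabolism had 6 up and 7 down, 2 up and 5 down (2 and 2 without EBd2 Dox 2), and 2 up and 7 down. Slc25a39, a mitochondrial glutathione importer, was at -1.28 in the first step, the glutathione peroxidase gene Gpx1 at -1.46 in the next, and Cth at -1.29 in the last. The other antioxidant enzymes had 6 up and 11 down, 4 up and 7 down, and 3 up and 6 down, with Prdx6 up by 1.73 ± 0.05 at the first step, Sesn2 at -1.21 in the next and Sesn3 at 0.63 in the last. Heme and iron genes had 6 up and 4 down, 4 up and 3 down, and 1 up and 5 down, with the heme synthesis gene Urod at -1.06 in the first step and 0.57 in the next and Tfrc at -0.61 in the last. The Atf4 programme had 5 up and 10 down, 9 up and 4 down, and 0 up and 12 down, with the asparagine synthetase gene Asns at -2.55 in the first step and 1.08 in the second, and the arginine and lysine transporter gene Slc7a1 at -1.26 in the last.

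The authors' deposited table calls all 8 genes unchanged in all 4 stages, since its calls need an absolute log2 fold change above 1 as well as an adjusted p below 0.05. In the authors' deposited table the adjusted p was 0.0667 for Hmox1 and 0.0599 for Gclm in EBd3, which passed in limma. The deposited mean counts are means over all 24 libraries, while limma fitted each stage alone. The samples behind these adjusted p may thus differ. In the joint limma fit of 24 libraries, Gclm did not pass in EBd3 (0.0694) and Hmox1 did. For Hmox1 in EBd2 the authors' deposited table gives 0.032, and for Txnrd1 in the same stage 0.0361.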

How the data were processed

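Total RNA of 24 libraries was sequenced. The submitters' processing notes name the build mm10 and the tools STAR 2.5.3a, featureCounts 1.5.2 and DESeq2. The DESeq2 version, the annotation and the strandedness are not given in the sources used here. The authors deposited 1 table per stage with 35742 genes. The deposited signal values are counts that the authors divided by 1 size factor per library: all positive values (100%) were whole reads within 1e-06 once multiplied by a factor. The deposited log2 fold change, the deposited score (the Wald statistic) and the deposited p-value columns were made with DESeq2 per the file headers, and were used for comparison alone.

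Groups were read from the labels. The main test was limma 3.58.1 (R 4.3.3, trend) on log2(value + 1). Genes needed a mean of 1 or more, and p-values were adjusted by Benjamini-Hochberg over all genes tested, with a threshold of 0.05. All 8 genes passed that filter in every comparison. Each stage was fitted alone for IAA over Dox, the 12 Dox libraries together for stages, and all 24 for differences of the IAA effect. A fold change on this scale understates that of low genes such as Slc7a11. Alternatives used edgeR 4.0.16 and DESeq2 1.42.0 on the recovered reads, a pseudocount of 0.5, no filter, TMM, a replicate block, a joint fit, and leaving out each library. TPM used GENCODE M21 exonic lengths. Of the genes, 35652 were found in GENCODE M21 and 14339 have no symbol.

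The 8 genes, the lists and the tests were chosen with earlier results of these data known. From each list, up to 3 genes with the smallest adjusted p among those past the threshold were named per stage, and 1 for Dox steps and differences. Likeness was ranked by Pearson r, skipping Gm and Rik symbols, pseudogenes and IDs with no symbol, and the first 3 genes were named. Genes named outside these rules are Mgst1, Ephx1, Bach1 and Gsk3b in mES, the genes that rose in all stages, and values of named genes in further stages.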

Additional observations from a re-analysis of the deposited data

Results flagged for a closer look

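For 7 results the IAA effect in an EB stage differed from that in mES by a test of the difference itself (limma, all 24 libraries). The 3 contrasts share the mES libraries. For Gclm the difference was 0.30 in EBd2 (adjusted p = 0.0232), 0.36 in EBd3 (0.00666) and 0.55 in EBd4 (5.19e-05), where IAA libraries of mES were below Dox libraries and those of EBd3 and EBd4 above. For Gclc the effect in EBd2 was more positive by 0.43 (4.10e-05). For Keap1 the difference of EBd4 was -0.54 (0.000378), with IAA libraries below Dox libraries in EBd4 and above in mES. For Hmox1 the difference was -0.49 in EBd2 (0.0311) and -0.51 in EBd3 (0.0314), where IAA libraries were higher on average in every stage. Of 18 alternative settings, the Hmox1 call was kept in 8 for EBd2 and 7 for EBd3, and the Gclm call of EBd2 in 13.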

How the results depend on the processing

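Over 80 gene results and their alternatives (1136 comparisons), 1079 kept their side of the threshold, 44 lost the call and 13 gained it. A change of direction was counted only where either fit passed the threshold, and there were 0 of these. Where neither passed, direction did change in places. The IAA value of Slc7a11 in EBd4 ran from -0.38 to 0.12, and the Dox step of Keap1 from EBd3 to EBd4 from -0.055 to 0.130. TMM scaling moved the median of all genes by at most 0.032 on the log2 scale. Genes past the threshold in EBd3 numbered 2245, against 1295 with DESeq2 and 1202 to 2613 with a library left out. In EBd4 they numbered 2173, against 1365 with the replicate block, 3425 in the joint fit and 776 to 2039 with a library left out. Of the 8 genes, 5 passed in EBd2, against 3 to 5 with a library left out. For the difference of EBd2 from mES, 3 passed, against 1 without the filter and 1 to 3 with a library left out. For that of EBd3 from mES, 2 passed, against 1 with DESeq2, 1 without the filter and 1 to 2 with a library left out. The causes were not tested.

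Deviations of same-numbered libraries of IAA and Dox from their group means had correlations from -0.306 to 0.133 over the 4 stages. With so few libraries per group, this check cannot tell whether the numbers pair the samples. With the replicate block as a term, 7931, 6679, 2402 and 1365 genes passed in mES, EBd2, EBd3 and EBd4. Slc7a11 had 5 to 14 reads per library in mES and EBd4, with SEs of 0.31 and 0.39. The ratios with a library left out were added after seeing the data.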
